A study of Homo sapiens with 28 samples.

Results

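Accessible chromatin of 6 myeloma cell lines known for a translocation or insertion that places CCND1 under immunoglobulin enhancers was compared with that of 12 myeloma lines known for other translocations. The CCND1 lines were Karpas620, KMS12BM, KMS12PE, KMS21BM, KMS27 and U266. The other lines were the WHSC1 lines H1112, KMS18, KMS26, KMS28, KMS34, LP1 and OPM2, and L363, MM1S, OCIMY5, RPMI8226 and XG-6, called the MAF lines here. They are 18 of the 22 untreated lines of the series, and KMS11, KMS20, PCM6 and PE1 were left out. Another 6 of the 28 libraries come from lines after 3 days in 10 µM lenalidomide, an immunomodulatory drug. The labels give the line and the treatment, while the translocation of each line is background knowledge of these lines and was not read from the files. The labels give no genotype beyond the line name, all cells grew in the same medium, and the untreated libraries of Karpas620, KMS27, OPM2, L363, MM1S and RPMI8226 were the controls of the lenalidomide experiment.

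Each line was grown from a tumour and assayed 1 time, so the lines are the replicates and there is no error within a line. KMS12BM and KMS12PE share an origin, so they were 1 sample in the tests, which set 5 CCND1 samples against 12 other samples. Their counts were summed in the tests of single regions, and their log2 values were averaged in the test of the CCND1 locus. Values of single lines are given as CPM, the counts of a region scaled to a common total of counts in all regions of the library. Libraries of CCND1 lines held 1680329 to 3929936 counts in regions (median 3311484) and those of the other lines 1602855 to 5564534 (median 2136895). Peaks fell in 28409 to 38811 regions per CCND1 line and in 18943 to 58983 per other line, and H1112 held the most counts and peaks. Of the counts, 53.0% to 66.6% lay within 2.5 kb of a transcription start in CCND1 lines and 49.0% to 66.1% in other lines. The part of these differences in depth in the results was not tested.

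CCND1 encodes cyclin D1, which binds CDK4 or CDK6 and drives cells from the first growth phase of the cycle into DNA replication. Myelomas activate a D-type cyclin early, either CCND1 directly by a translocation, or CCND2, which is typical of tumours with WHSC1 or MAF translocations since MAF activates CCND2. WHSC1 encodes a histone methyltransferase, and MAF encodes a transcription factor of the basic leucine zipper family. ATAC-seq uses a transposase that inserts sequencing adapters into open chromatin, so its counts are high at active promoters and enhancers.

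Plasma cell regulators were open in both groups. The regions at the starts of PRDM1, IRF4, SDC1, TNFRSF17 and CD38 were called as peaks in 6 of 6 CCND1 lines and in at least 11 of the 12 other lines, and XBP1 was called in 5 and 11. SLAMF7, the remaining marker, was called in 1 line of each group. Among B cell markers, the regions of MS4A1 and CD79A were each called in 1 line per group, that of CD22 in 1 CCND1 line, that of PAX5 in 3 CCND1 lines and that of CD79B in 5 CCND1 and 6 other lines, at up to 26.7 and 46.3 CPM. Of the T cell markers, LCK, which B lineage cells can also express, was called in 5 CCND1 and 5 other lines and CD7 in 2 and 1. CD3D and CD3G had the same values and were called together in 1 CCND1 line. CD3E was called in no line, while CD2, CD5 and CD8A had no region within 2.5 kb of their start. Of the myeloid markers, CD14 was called in 0 CCND1 and 2 other lines, CD33 in 0 and 1 and ITGAM in 1 and 1, and LYZ, CSF1R, MPO and FCGR3A had no region near their start.

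The question of the comparison was which regions are open in CCND1 lines and closed in lines with other translocations, or the reverse. Few regions met this across lines, and most that did lay far from promoters. Of 54366 regions with enough counts to test, 35 (0.0644%) passed an adjusted p of 0.05 in edgeR, of which 29 (0.0533%) were more accessible in CCND1 lines and 6 (0.0110%) less. Of these 35 regions, 7 lay within 2.5 kb of an annotated start, against 41.4% of all regions tested, and the median distance to the nearest start was 16.1 kb. By annotation 19 were intergenic, 7 intronic, 6 at promoters and 3 in exons. Accessibility in bulk cultures cannot be told apart here from the copy number of a region or from the share of cells in which it is open.

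The groups seldom separated completely. Every CCND1 line exceeded every other line in 12 regions (0.0221% of those tested), 5 of them past the threshold, and every CCND1 line fell below every other line in 22 regions (0.0405%), 4 of them past the threshold. At an unadjusted p of 0.05, 2372 regions (4.36%) were higher and 3686 (6.78%) were lower. DESeq2, run on the same counts, called 380 higher (0.702% of the 54099 to which it gave an adjusted p) and 1194 lower (2.21%), and all 35 regions called by edgeR were among them. The number of calls therefore depended on the test, and the lower regions gained most from DESeq2. The 9 regions that separated all 6 CCND1 lines from all 12 other lines and passed edgeR's threshold are described first.

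**Figure D1:**
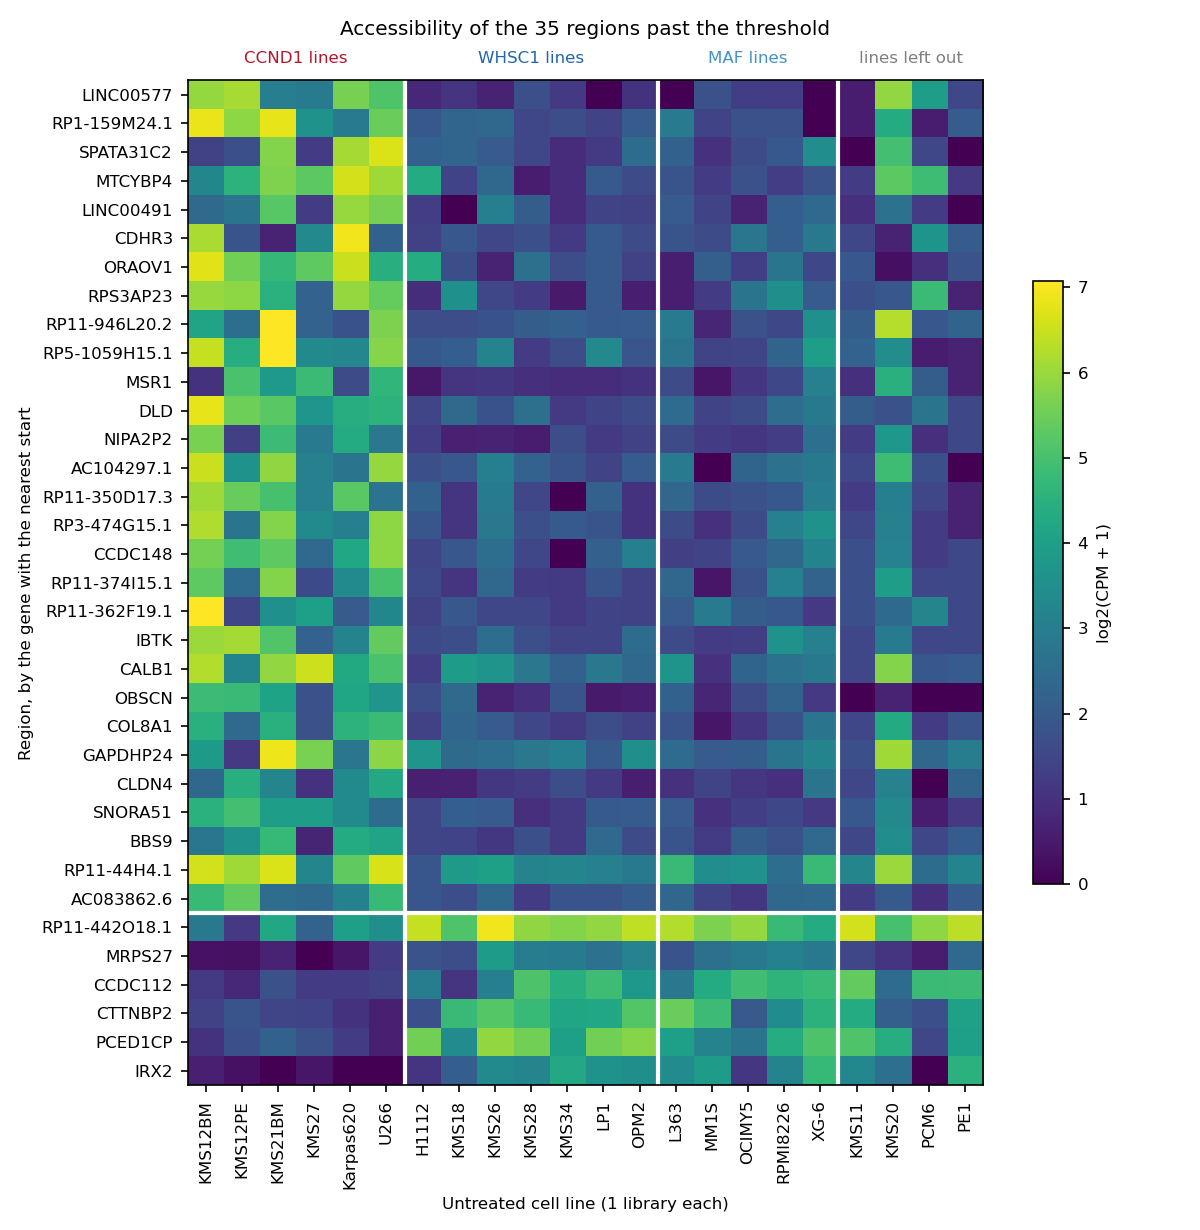
Heat map of log2(CPM + 1) for the 35 regions past the threshold (rows, named by the gene with the nearest start, the 29 higher regions above the white line and the 6 lower below it) in the 22 untreated lines (columns, grouped as CCND1, WHSC1, MAF and left out). The 29 upper rows are bright in most CCND1 lines, dark in most WHSC1 and MAF lines, and bright in many rows in KMS20, which was left out of the test.

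At the locus that defines the group, the region that separated the lines was not the CCND1 promoter but a region 14.8 kb downstream of the CCND1 start. It spans chr11:69469956-69471433 in GRCh37 (1478 bp), within an exon of ORAOV1 (ENSG00000149716, also called LTO1, a gene needed for ribosome biogenesis), 1.764 kb from that gene's nearest start. Its level was 89.2 CPM in Karpas620, 107 CPM in KMS12BM, 46.3 CPM in KMS12PE, 25.0 CPM in KMS21BM, 38.8 CPM in KMS27 and 21.0 CPM in U266. The other lines ran from 0.510 to 19.9 CPM with a median of 2.2 CPM. H1112 was the line at 19.9 CPM and RPMI8226 came next at 5.67 CPM, so the groups did not overlap but U266 and H1112 nearly met. The log2 fold change was 3.59 ± 0.63 (SE, edgeR adjusted p = 0.040).

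Peaks were called there in 3 CCND1 lines and in no other line. After lenalidomide the region stood at 48.9 CPM in Karpas620 and at 34.9 CPM in KMS27, while the 4 treated lines of the other group stayed between 0.363 CPM in MM1S and 5.41 CPM in RPMI8226. Without H1112 the log2 fold change was 4.44 with an adjusted p of 3.1e-04, and without Karpas620 it was 3.25 with an adjusted p of 0.12. Scaling every library by its own background counts in 10 Mb bins, which takes out differences in local background, gave 3.12 with an adjusted p of 0.071. The 300 bases at its centre are shown because this is the region past the threshold at the CCND1 locus, and the capitals mark the E-box CAGCTG.

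chr11:69470545-69470844, + strand: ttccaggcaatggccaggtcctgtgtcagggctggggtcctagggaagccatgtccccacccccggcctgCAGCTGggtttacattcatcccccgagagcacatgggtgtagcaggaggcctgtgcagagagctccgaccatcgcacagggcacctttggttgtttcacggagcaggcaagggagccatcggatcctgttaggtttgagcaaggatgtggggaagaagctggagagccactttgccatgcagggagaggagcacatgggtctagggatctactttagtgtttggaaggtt

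Among the neighbouring regions, 2 downstream of the CCND1 start had higher values in CCND1 lines without passing the threshold. A region 13.6 kb downstream of the CCND1 start, chr11:69469377-69469603, had 2.73 to 28.9 CPM in CCND1 lines and 0 to 6.29 CPM in other lines, where H1112 was again the highest. Its log2 fold change was 3.03 ± 0.69 (SE, edgeR adjusted p = 0.10). Inside CCND1 itself, 5.76 kb from its start, chr11:69461584-69461793 had 3.83 to 30.0 CPM in CCND1 lines and 0 to 11 CPM in other lines, with a median of 0.487 CPM in the latter. There the log2 fold change was 2.88 ± 0.85 (SE, edgeR adjusted p = 0.19), and H1112 at 11 CPM was above Karpas620, KMS27 and U266.

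Upstream of CCND1, at -198 kb from its start in an intron of AP000439.2, chr11:69257911-69258812 stood at 71.8 CPM in KMS12BM, 48.3 CPM in KMS12PE and 47.5 CPM in Karpas620. KMS27 and U266 had 15.5 and 11.2 CPM, which lie within the range of the other lines (1.25 to 17.9 CPM), and KMS21BM had 1.19 CPM, below all of them (edgeR adjusted p = 0.21). The region over the CCND1 start, chr11:69455558-69456170, had 4.76 to 17 CPM in CCND1 lines and 0 to 14.6 CPM in other lines, with a log2 fold change of 0.84 ± 0.61 (SE, edgeR adjusted p = 0.70). At -1.96 kb, chr11:69453726-69454204 had 5.36 to 15.5 CPM in CCND1 lines and 0 to 10.4 CPM in other lines. The log2 fold change there was 1.39 ± 0.59 (SE, edgeR adjusted p = 0.36). At 2.25 kb it was 0.23 ± 0.39 (SE, edgeR adjusted p = 0.91). The region at 5.76 kb is annotated as promoter too, 0.931 kb from a further CCND1 start. The regions annotated as CCND1 promoter therefore overlapped between the groups, with a positive log2 fold change in each. An intergenic region at -62.8 kb from the CCND1 start had the opposite sign, with means of 7.80 CPM in CCND1 lines and 12.8 CPM in other lines (log2 fold change -0.89, edgeR adjusted p = 0.79). At MYEOV, the gene that lies upstream of CCND1 on the same chromosome arm, the tallest region of the window up to the end of CCND1 was called in 5 CCND1 lines and in all 12 other lines, with a log2 fold change of -0.13 (edgeR adjusted p = 0.92).

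Summed from the start of MYEOV to the end of CCND1, 29 regions covering 13475 bp, accessibility ran from 101 CPM in U266 to 355 CPM in KMS12BM among CCND1 lines. Other lines ran from 59.0 CPM in OCIMY5 to 224 CPM in RPMI8226. On the log2(CPM + 1) scale the means were 7.36 ± 0.63 (SD, n = 5) and 6.82 ± 0.52 (SD, n = 12). The difference of 0.54 had p = 0.092 in an exact permutation test (two-sided, smallest possible p 0.00032), so a higher sum in CCND1 lines was not resolved from the spread between lines. The window was also extended to the end of LTO1, a choice made after the data were seen. This adds the regions 13.6 kb and 14.8 kb downstream of the CCND1 start, of which the latter had already passed the threshold. The difference was then 0.88 (exact permutation test, two-sided, p = 0.016).

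**Figure D2:**
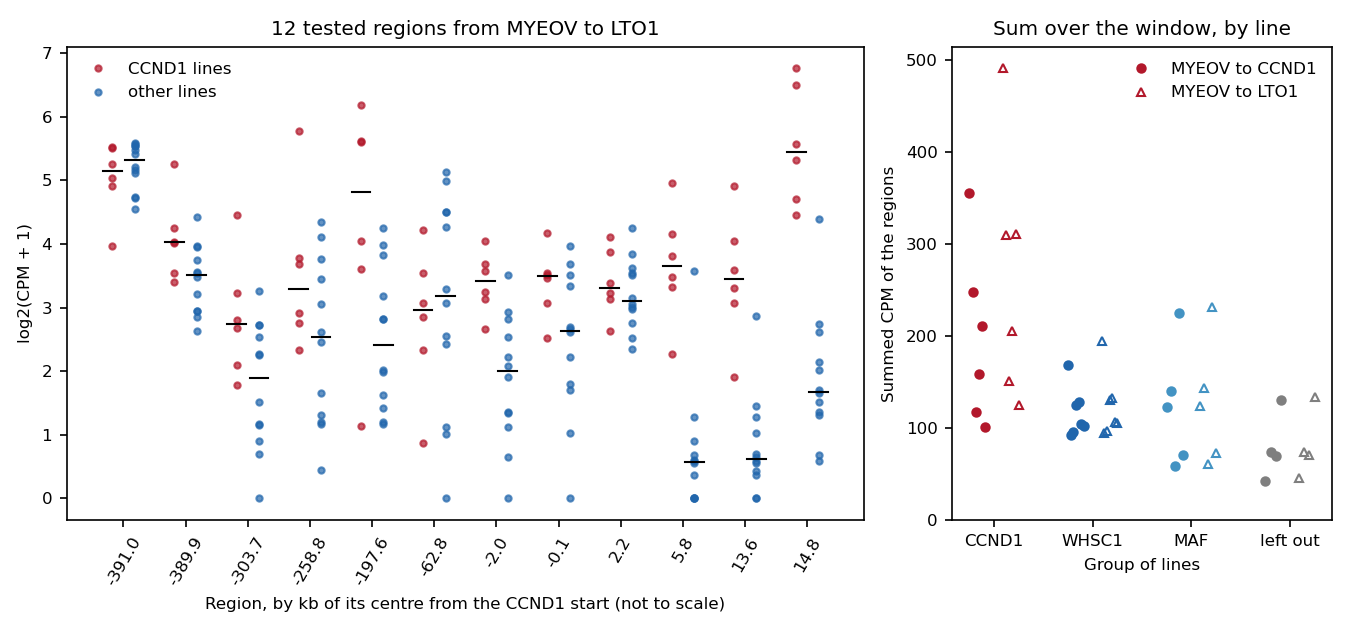
Left, log2(CPM + 1) of the 12 tested regions from MYEOV to LTO1 by the distance of their centre from the CCND1 start in kb, in CCND1 lines (red) and other lines (blue), with 1 point per line and a bar at the median. Right, CPM summed over the window to the end of CCND1 (filled circles) and of LTO1 (open triangles) by group of lines. At 14.8 kb the 6 CCND1 lines lie above all other lines, while at the CCND1 start, -0.1 kb, the groups overlap.

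The region with the largest increase lay in an exon of the long non-coding RNA LINC00577 (ENSG00000203809), chr6:105384457-105385374, 19.6 kb from the start of LIN28B, which encodes an RNA-binding protein that blocks maturation of let-7 microRNAs. It had 48.2 CPM in Karpas620, 60.5 CPM in KMS12BM, 70.0 CPM in KMS12PE and 33.6 CPM in U266, but 7.14 CPM in KMS21BM and 6.75 CPM in KMS27. No other line exceeded 2.40 CPM and 3 of them had 0. It was higher in CCND1 lines by a log2 fold change of 4.94 ± 0.62 (SE, edgeR adjusted p = 0.0037), and leaving out any single sample kept it past the threshold, with log2 fold changes from 4.53 to 5.24. Of the lines left out, KMS20 had 59.3 CPM and PCM6 14.4 CPM, while KMS11 had 0.459 CPM and PE1 1.88 CPM.

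The region near DLD also passed the threshold whichever sample was left out. It spans chr7:107520815-107521721, 9.693 kb before the nearest annotated start of DLD (ENSG00000091140), which encodes dihydrolipoamide dehydrogenase of the pyruvate dehydrogenase complex. Its level was 20.1 CPM in Karpas620, 111 CPM in KMS12BM, 44.8 CPM in KMS12PE, 37.5 CPM in KMS21BM, 12.1 CPM in KMS27 and 22.7 CPM in U266, against 1.30 to 6.24 CPM in other lines. All 6 CCND1 lines had a called peak and no other line did. This made a log2 fold change of 3.47 ± 0.43 (SE, edgeR adjusted p = 0.0037). The lines left out were low as well, with KMS20 at 2.36 CPM and PCM6 at 5.58 CPM, so here KMS20 stood with the other lines.

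The other higher regions without overlap were weaker. The intergenic region chr8:60086518-60087226, nearest to the small nucleolar RNA SNORA51 and 54.8 kb from the start of TOX, a high mobility group transcription factor gene, had 4.65 to 30.3 CPM in CCND1 lines with a median of 14.2 CPM. The other lines had 0.928 to 3.37 CPM, and the log2 fold change was 2.76 ± 0.41 (SE, edgeR adjusted p = 0.016). A region in an intron of AGBL3, which encodes an enzyme that removes glutamates from tubulin, chr7:134761727-134762974, had 4.38 CPM in KMS27 and up to 40.5 CPM in KMS12PE. The highest other line, XG-6, had 4.37 CPM, so those lines touched (log2 fold change 2.43 ± 0.45, SE, edgeR adjusted p = 0.048).

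Of the regions lower in CCND1 lines, the change was largest near IRX2 (ENSG00000170561), a homeobox gene. The region chr5:2761683-2762347 is intergenic and 8.713 kb from the nearest start of IRX2. The CCND1 lines held 4 counts there together, with 0 in Karpas620, KMS21BM and U266, 0.526 CPM in KMS12BM, 0.254 CPM in KMS12PE and 0.337 CPM in KMS27. The other lines had 1.08 to 25.6 CPM with a median of 9.43 CPM, and H1112 and OCIMY5 were the lowest. The log2 fold change was -5.37 ± 0.89 (SE, edgeR adjusted p = 0.033), a size that depends on how the fit treats counts near 0. PCM6, among the lines left out, was also at 0, and PE1 had 21.9 CPM.

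In an intron of MRPS27, which encodes a mitochondrial ribosomal protein, the region chr5:71589497-71589793 had 0 to 1.37 CPM in CCND1 lines and 2.24 to 14.1 CPM in other lines (log2 fold change -3.45 ± 0.62, SE, edgeR adjusted p = 0.044). A region 16.1 kb from the pseudogene PCED1CP and 276 kb from the start of ERBB4, a receptor tyrosine kinase gene, chr2:213679747-213680747, had 0.547 to 3.57 CPM in CCND1 lines. Its median was 26.4 CPM in other lines, and the WHSC1 lines averaged 39.6 CPM against 16.2 CPM in the MAF lines. Its log2 fold change was -3.94 ± 0.68 (SE, edgeR adjusted p = 0.040). The last, chr10:130855448-130856877, lies 409 kb from the start of MGMT, the gene of a DNA repair enzyme that removes alkyl groups from guanine. It was called in all 12 other lines, at 19.3 to 121 CPM, and in 2 CCND1 lines, which ranged from 1.27 CPM in KMS12PE to 17.9 CPM in KMS21BM (log2 fold change -2.57 ± 0.47, SE, edgeR adjusted p = 0.044).

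The centres of the regions near IRX2 and MRPS27 are shown because both hold the letters AAANTGAAA, an element bound by interferon regulatory factors such as IRF4. The capitals mark it, and in the MRPS27 region also TGANTCA, the AP-1 site.

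IRX2 region, chr5:2761866-2762165, + strand: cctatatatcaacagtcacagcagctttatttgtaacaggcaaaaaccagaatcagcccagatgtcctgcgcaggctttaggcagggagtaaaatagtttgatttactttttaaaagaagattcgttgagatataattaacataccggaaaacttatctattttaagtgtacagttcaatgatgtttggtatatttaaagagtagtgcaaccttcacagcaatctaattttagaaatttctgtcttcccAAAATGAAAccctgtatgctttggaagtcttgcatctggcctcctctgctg
MRPS27 region, chr5:71589496-71589795, + strand: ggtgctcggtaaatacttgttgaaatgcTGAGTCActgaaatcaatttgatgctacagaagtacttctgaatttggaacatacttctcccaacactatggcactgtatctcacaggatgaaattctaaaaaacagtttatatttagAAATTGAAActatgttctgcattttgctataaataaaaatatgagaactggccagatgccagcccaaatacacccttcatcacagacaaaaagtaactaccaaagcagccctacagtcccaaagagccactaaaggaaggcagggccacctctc

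**Figure D3:**
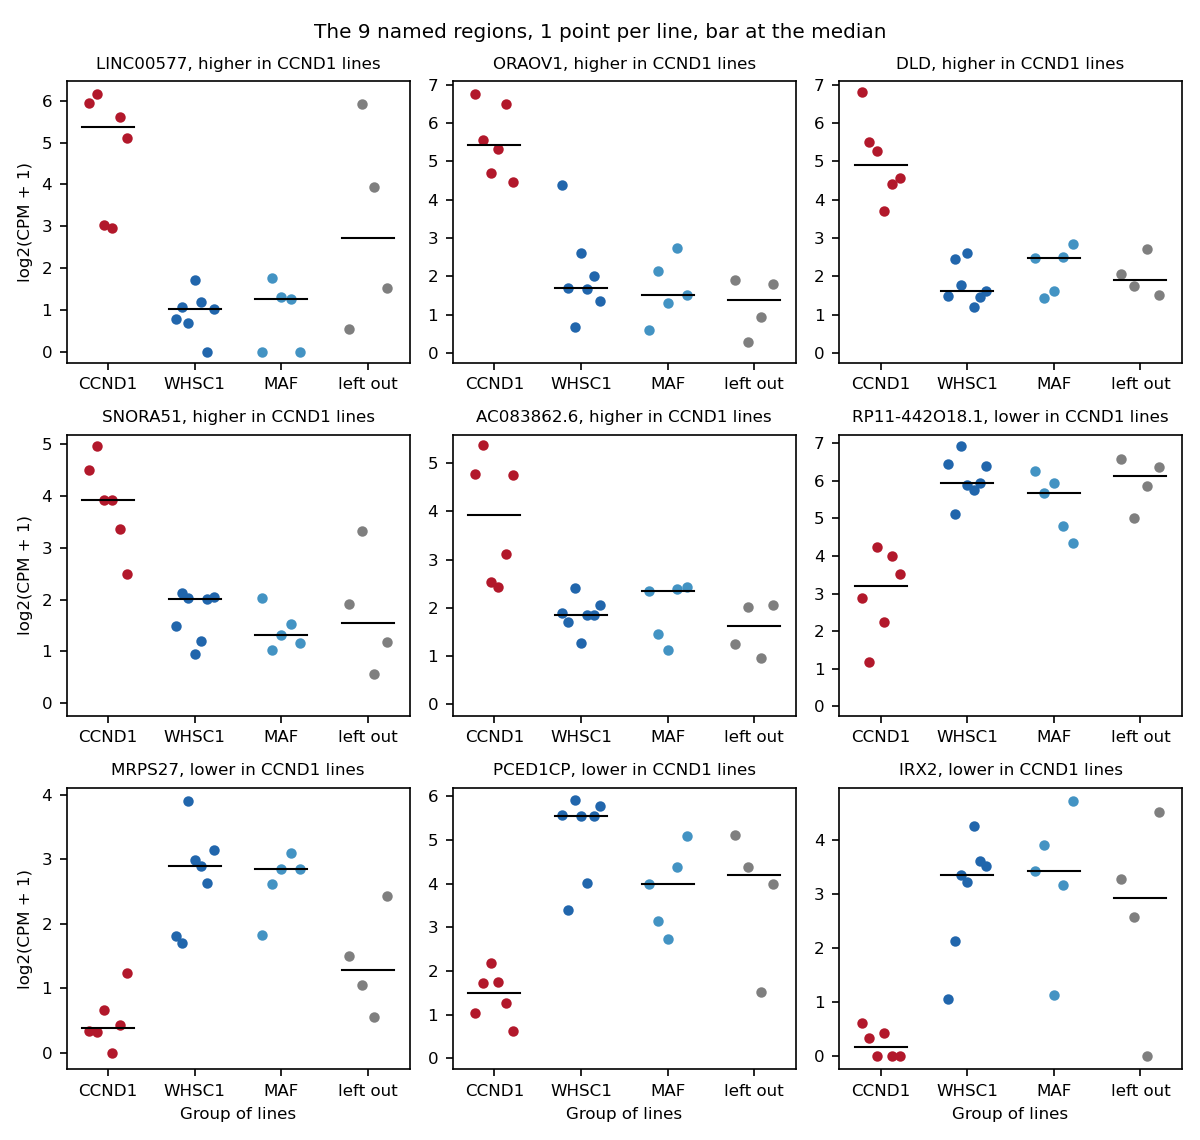
log2(CPM + 1) of the 9 named regions, each panel titled by the gene with the nearest start, with 1 point per untreated line in the CCND1, WHSC1, MAF and left-out groups and a bar at the group's median. In every panel the 6 CCND1 points lie apart from the 12 points of the WHSC1 and MAF groups, by little in the panels of ORAOV1, AC083862.6 and RP11-442O18.1.

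Motifs were searched on both strands in the central 300 bases of each region. The interferon regulatory element AAANTGAAA was in 3 of the 6 lower regions, those near IRX2, MRPS27 and CCDC112, in 0 of the 29 higher regions and in 8.51% of all regions tested. The E-box CAGCTG, bound by basic helix-loop-helix factors, was in 6 of 29 higher regions (20.7%) beside 21.8% of all regions, and the AP-1 site TGANTCA was in 4 (13.8%) beside 11.5%. The RUNX site TGTGGTT was in 0 higher regions and in 2 lower ones, those near PCED1CP and RP11-442O18.1, beside 11.3% of all regions. The MAF site TGCTGAC was in 0 higher regions and in the lower region near CCDC112, beside 5.33% of all regions. In the higher regions the EBF site CCCNNGGGA was found 1 time, near CDHR3, beside 6.70% of all regions. The TEAD site GGAATG was in 2 of 29 higher regions (6.90%), near DLD and RP11-44H4.1, and in 0 lower ones, beside 11.6% of all regions. The octamer ATGCAAAT, the PU.1 site AGAGGAAGT, the GC box GGGGCGGGG and the NF-kB site GGAATTTCC were in none of the 35. They were in 2.72%, 1.21%, 7.23% and 0.373% of all regions. Among the lower regions, the E-box, AP-1 and EBF sites were in 1 of 6 each. Most of the 35 regions lay over 2.5 kb from a start. In tested regions that far away, the AP-1 site was in 14.4%, above its share of the higher regions. The interferon element was in 11.5% there, the RUNX site in 14.7%, the E-box in 22.6%, the MAF site in 6.12%, the EBF site in 4.54% and the GC box in 1.66%. These letters can overlap by chance in any sequence, and no test was made of the counts.

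The 24 higher regions and 2 lower regions in which lines of the groups overlapped showed how unevenly the CCND1 lines took part. In 24 of the 29 higher regions at least 4 CCND1 lines, and in 16 at least 5, were above all 12 other lines, and the fewest was 3. KMS21BM was above all other lines in 28 of the 29, U266 in 27, KMS12BM in 24, Karpas620 in 20, KMS12PE in 18 and KMS27 in 15. That CCND1 lines exceed the other lines here restates the choice of the regions. KMS27 was the lowest of the 6 in 14 regions and had a called peak in 12, against 20 to 26 in the remaining CCND1 lines. Lines of the same origin also differed, as in the region nearest RP11-362F19.1 on chromosome 4, which had 131 CPM in KMS12BM and 1.78 CPM in KMS12PE.

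Near CALB1, the gene of the calcium-binding protein calbindin, chr8:91109847-91111271 had 8.14 to 92.1 CPM in CCND1 lines and 1.03 to 14.0 CPM in other lines (log2 fold change 3.07 ± 0.47, SE, edgeR adjusted p = 0.019). Near MSR1, a macrophage scavenger receptor gene, the region on chromosome 8 had 32.1 CPM in KMS12PE but 1.05 CPM in KMS12BM. That of KMS12BM and that of Karpas620 lay within the range of the other lines. A region 144 kb from the start of BCL6, a repressor that keeps germinal centre B cells from becoming plasma cells, chr3:187607443-187608763, had 8.43 CPM in KMS27 and at least 39.9 CPM in the remaining CCND1 lines. The other lines had 2.70 to 26.5 CPM there, so KMS27 fell within their range (log2 fold change 2.54 ± 0.46, SE, edgeR adjusted p = 0.044).

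The promoter of CTTNBP2, which encodes a cortactin-binding protein, was among the lower regions with overlap. At chr7:117512601-117513890 the CCND1 lines had 0.547 to 2.54 CPM and the other lines 2.34 to 42.8 CPM with a median of 24.2 CPM, with 0 and 7 called peaks (log2 fold change -3.83 ± 0.67, SE, edgeR adjusted p = 0.040). The remaining lower region, chr5:114668550-114669366, 36.0 kb from the start of CCDC112, a coiled-coil protein gene, had 0.763 to 2.38 CPM against 1.12 to 33.4 CPM (log2 fold change -3.45 ± 0.63, SE, edgeR adjusted p = 0.045). H1112 was the line at 2.34 CPM near CTTNBP2 and KMS18 the line at 1.12 CPM near CCDC112, and the remaining other lines were above all CCND1 lines in both regions.

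KMS20, which took no part in the test, had a called peak in 22 of the 29 higher regions and was above all 12 other lines in 17. KMS11 and PE1 had 0 and PCM6 had 3, and the 12 other lines had 0 to 7, the most in XG-6. KMS20 had 54387 called regions in all, the second most of the untreated lines. H1112 had the most, 58983, and 3 of the 29, but its library was used to choose the 29 regions. The part of the number of called regions in the count of KMS20 was not tested. At the CCND1 locus KMS20 was low, with 0.215 CPM in the region downstream of CCND1. Among the 6 lower regions KMS20 was called in 4. After lenalidomide, Karpas620 had called peaks in 25 of the 29 regions and KMS27 in 18, while the 4 treated lines of the other group had 2 or 3. Unlike KMS20, these are lines whose untreated libraries were used to choose the 29 regions.

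**Figure D4:**
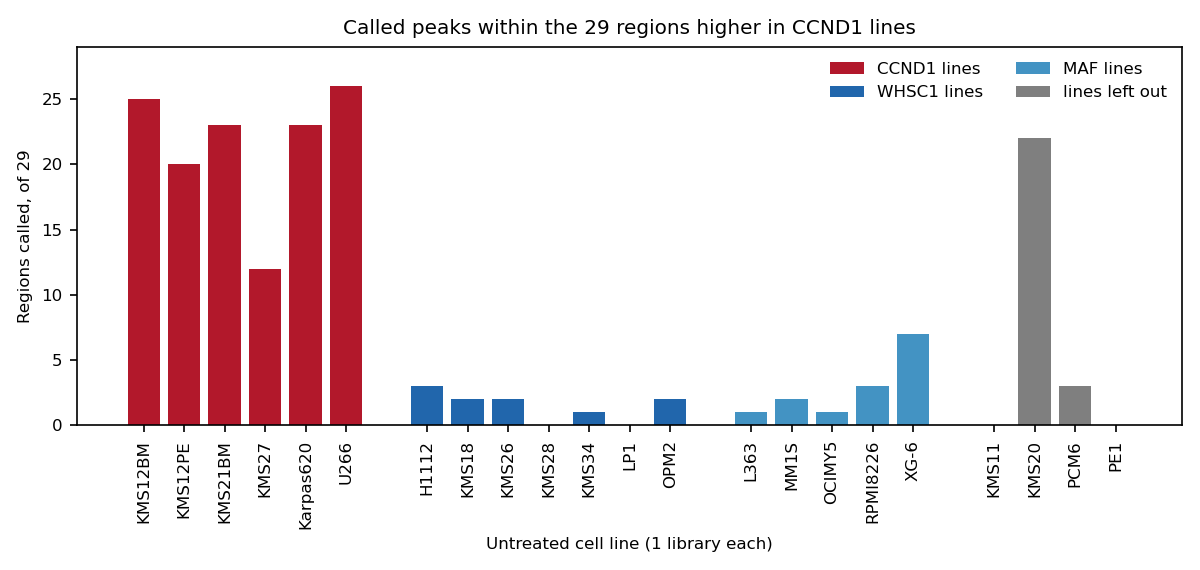
Number of the 29 regions higher in CCND1 lines that hold a called peak in each of the 22 untreated lines, in bars coloured by group. CCND1 lines reach 12 (KMS27) to 26 (U266), WHSC1 and MAF lines 0 to 7, and KMS20, a line outside the test, 22. The bars of the CCND1, WHSC1 and MAF lines restate the choice of the regions.

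Called peaks were also compared without the counts. Of all 154985 regions, 7031 were called in all 18 lines. Only 4 regions were called in all 6 CCND1 lines and in no other line, and 1 of them, the region near DLD, passed the threshold. The reverse pattern, a peak in all 12 other lines and in no CCND1 line, had 0 regions. Under looser rules, 50 regions were called in at least 5 CCND1 lines and no other line, 6 of them past the threshold, and 13 were called in at least 10 of the 12 other lines and no CCND1 line, 0 of them past it. Among these 13 was a region near RNF152, a ubiquitin ligase gene (log2 fold change -3.29, edgeR adjusted p = 0.076). It was named after its values were seen.

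Gene lists gave no call. Among 188 genes in 11 lists, 134 had a tested region within 2.5 kb of their start, and 0 passed edgeR's adjusted threshold in either direction. At an unadjusted p of 0.05, 4 regions were higher and 4 lower of 132, where the background over all regions was 4.36% and 6.78%. DESeq2 called 0 higher and 2 lower. The median log2 fold change over these regions was 0.11, beside -0.03 over all regions tested.

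The D-type cyclins and their partners, 20 of 21 genes tested, had a median log2 fold change of 0.10 and ranged from -1.02 to 0.84. CCND2, the cyclin of WHSC1 and MAF tumours, had the lowest value of the list. Its promoter, chr12:4382675-4383126, had 0 CPM in KMS12PE and KMS21BM, 0.526 CPM in KMS12BM and 3.12 CPM in Karpas620, but 13.1 CPM in U266 and 19.2 CPM in KMS27. The other lines had 1.39 CPM in KMS28 and 2.70 CPM in H1112 as their lowest values and 29 CPM in KMS34 as their highest, with a median of 16.8 CPM. The log2 fold change was -1.02 ± 0.79 (SE, edgeR adjusted p = 0.72), so 3 CCND1 lines lay below all other lines and 3 lay within their range. CCND3 was even between groups, with 14.2 to 33.7 CPM in CCND1 lines and 16.9 to 41.5 CPM in the others (log2 fold change 0.06 ± 0.26, SE, edgeR adjusted p = 0.97).

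The list of MAF genes and targets had a median log2 fold change of -0.54 over 16 regions, of which 0 passed the threshold, against medians of 0.05 to 0.29 in the other gene programs. At the MAF start, KMS12BM, KMS12PE, KMS21BM and KMS27 had 0.254 to 4.38 CPM, while Karpas620 had 28.1 CPM and U266 23.8 CPM, inside the other lines' range of 6.11 to 86.8 CPM (log2 fold change -1.38 ± 0.75, SE, edgeR adjusted p = 0.53). The MAF lines were not the highest at MAF, where KMS26, a WHSC1 line, led.

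The list regions that DESeq2 called lower were chosen for mention after their values were seen. NTRK2, which encodes the receptor of the neurotrophin BDNF and is on the MAF list, had 0 to 2.19 CPM at its start in CCND1 lines and 1.44 to 31.3 CPM in other lines (log2 fold change -3.46 ± 0.73, SE, edgeR adjusted p = 0.079, DESeq2 adjusted p = 1.2e-04). TNFRSF13B, which encodes the TACI receptor for the plasma cell survival factors BAFF and APRIL, had 0.254 to 3.71 CPM in CCND1 lines, while KMS26 had 78.9 CPM and XG-6 0.624 CPM among the others (log2 fold change -3.17 ± 1.11, SE, edgeR adjusted p = 0.26, DESeq2 adjusted p = 0.033). For both genes the ranges of the groups overlapped.

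Of the B cell program, 16 of 30 genes were tested, 2 were higher at an unadjusted p of 0.05 and 0 passed the adjusted threshold. PAX5, the transcription factor that sets B cell identity and is silenced in plasma cells, split the CCND1 lines. Its region had 37.4 CPM in KMS27, 26.8 CPM in KMS12BM and 20.1 CPM in Karpas620, all above the other lines, which reached 9.74 CPM in KMS28. KMS12PE had 3.82 CPM, U266 1.09 CPM and KMS21BM 0.595 CPM, within the range of the others (log2 fold change 2.00 ± 0.75, SE, edgeR adjusted p = 0.30). Peaks were called at PAX5 in 3 CCND1 lines and 0 other lines. Calls at further tested members varied, with 1 CCND1 and 0 other lines at POU2F2, 3 and 3 at FCRLA, 2 and 8 at EBF1 and 2 and 11 at CR2. The median log2 fold change of the list was 0.13. The regions of MS4A1, which encodes CD20, and CD79A, a part of the B cell receptor, had enough counts in too few lines to be tested. These 2 regions reached at most 14.9 and 14.2 CPM in CCND1 lines and 26.8 and 15.9 CPM in other lines.

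Of the plasma cell program, 19 of 20 genes were tested and 0 were called by edgeR, with a median log2 fold change of 0.05. TNFRSF13B, described above, belongs to this list and was its 1 gene lower at an unadjusted p of 0.05 and its 1 gene called by DESeq2. PRDM1, which encodes the repressor BLIMP1, had a log2 fold change of -0.05 ± 0.33 (SE, edgeR adjusted p = 0.98). IRF4, which keeps plasma and myeloma cells alive, had 0.0048 ± 0.27 (SE, edgeR adjusted p = 0.997). XBP1, which drives the secretory program, had 5.36 to 24.1 CPM in CCND1 lines and 14.4 to 36.7 CPM in other lines (log2 fold change -0.46 ± 0.34, SE, edgeR adjusted p = 0.70). WHSC1 had 0.01 ± 0.30 (SE, edgeR adjusted p = 0.99) at its start, where a promoter that is open in every line was measured, and FGFR3, the further gene activated with WHSC1, did not have enough counts. BCL2, an inhibitor of cell death, had 2.98 CPM in KMS21BM and 30.5 CPM in KMS12PE, and its log2 fold change was 0.22 ± 0.45 (SE, edgeR adjusted p = 0.93).

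Of the remaining lists, the neighbours of CCND1 on its chromosome arm (11 of 21 genes tested), the WHSC1 translocation genes (12 of 14), the BCL2 family (13 of 16), adhesion and homing (16 of 20) and the NF-kB pathway (13 of 16) had 0 calls each. Their median log2 fold changes were 0.29, 0.06, 0.20, 0.16 and 0.21. Only 1 of 8 T cell markers and 0 of 7 myeloid markers had a tested region, while 7 of 7 plasma cell markers did, with summed levels of 208 to 325 CPM in CCND1 lines and 165 to 302 CPM in other lines. MYEOV had no annotated start among those used for the lists and was described with the locus.

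**Figure D5:**
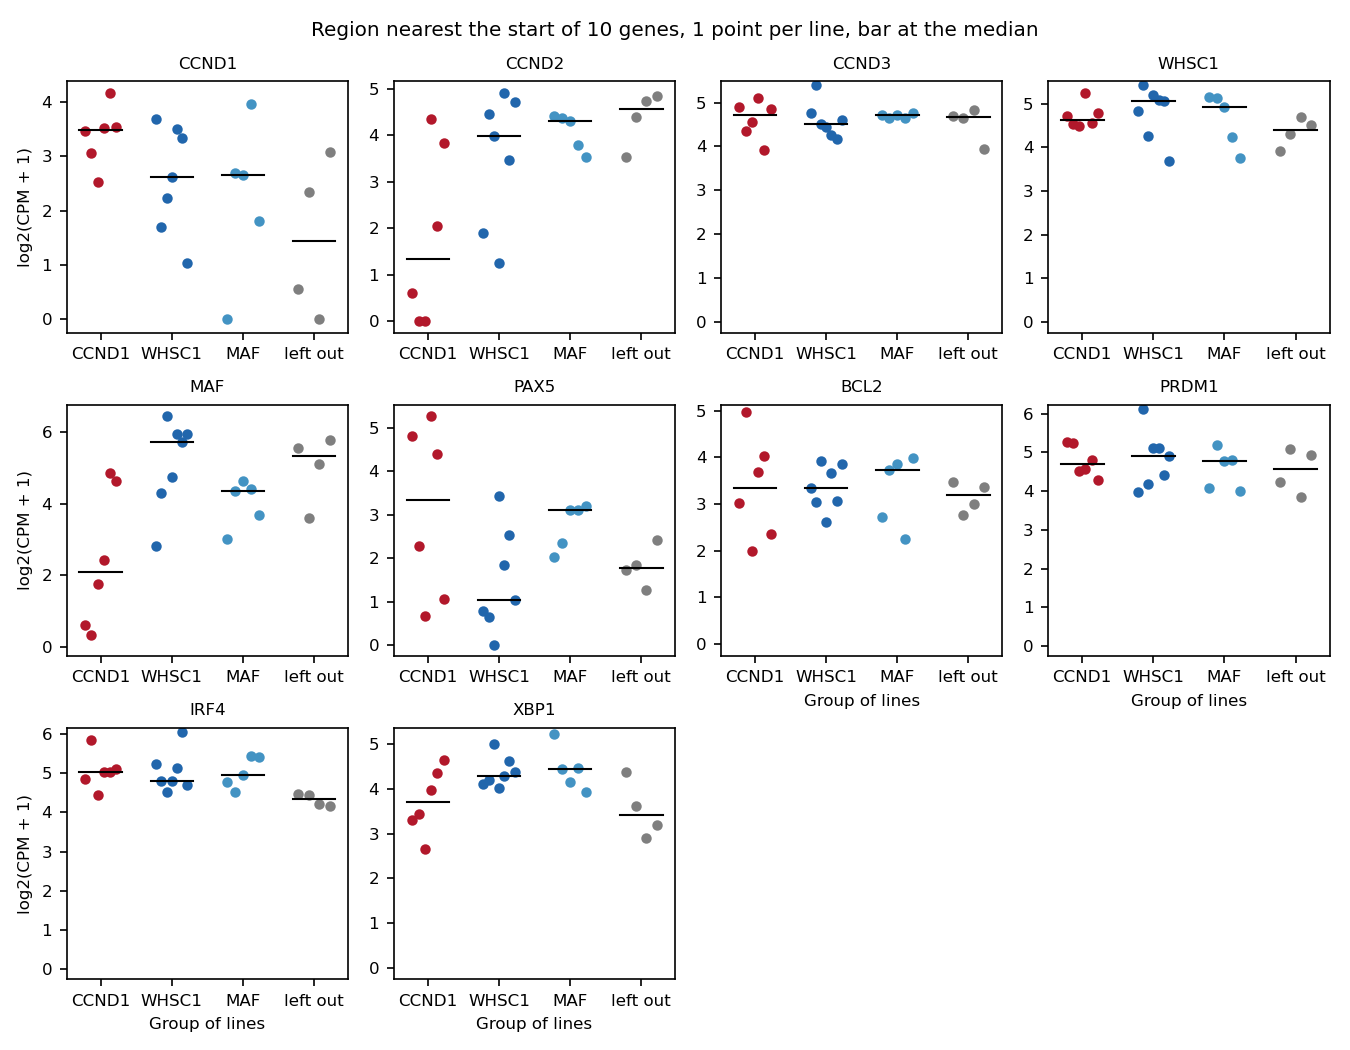
log2(CPM + 1) of the region nearest the start of 10 genes that were to be shown whatever their result, with 1 point per untreated line in the CCND1, WHSC1, MAF and left-out groups and a bar at the median. CCND1 lines are split at CCND2 and MAF, where some lie below all other lines and the rest within their range, and at PAX5, where 3 lie above all other lines, and IRF4, PRDM1 and CCND3 are even between groups.

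Across all tested regions the CCND1 lines did not form a group of their own. The correlation of log2 CPM between pairs of CCND1 lines had a median of 0.619 (15 pairs, 0.569 to 0.713), and its highest value was that of KMS12BM with KMS12PE. Pairs of a CCND1 and a MAF line had a median of 0.580 (30 pairs) and pairs of a CCND1 and a WHSC1 line 0.522 (42 pairs). The highest of these was KMS27 with L363, a MAF line, at 0.753, and KMS27 with KMS18, a WHSC1 line, reached 0.707. Both lie above the values of KMS27 with any CCND1 line, 0.613 to 0.669. Pairs share the set of regions and differ in depth, so these values describe the libraries and carry no test. On the first principal component (15.2% of the variance) all CCND1 samples were negative, as were RPMI8226, OCIMY5, L363, H1112 and XG-6.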

How the data were processed

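ATAC-seq counts of 28 libraries from myeloma cell lines were used, of which 18 untreated libraries entered the comparison. The authors aligned reads to GRCh37 with Bowtie2 2.2.6, marked PCR duplicates with SAMtools 1.7, called peaks per library with MACS2 2.1.0.20151222 and merged them into 154985 autosomal regions (median 420 bp). Counting of reads or of fragments, and any shift of read ends for transposase binding, are not given in the sources used here. The deposited raw counts per region were tested, and the RPM values deposited by the authors equal CPM computed here within 5.46e-12. A further deposited table of whole numbers up to 4, not defined in the files, was read as the number of a library's own peaks in a region, and a region with at least 1 was taken as called.

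The counts of KMS12BM and KMS12PE were summed for the tests of regions. edgeR 4.0.16 was run on raw counts in R 4.3.3 with limma 3.58.1, TMM normalization, filterByExpr by group, the quasi-likelihood F test, and p-values adjusted by Benjamini-Hochberg over all regions tested, with a threshold of 0.05. Each standard error is the log2 fold change divided by the root of F. The summed CCND1 window was tested on log2(CPM + 1), pseudocount 1, with an exact permutation test. There KMS12BM and KMS12PE entered as the mean of their log2 values. The fits were tested on simulated data. DESeq2 1.42.0 and SciPy 1.17.1 were also used. Nearest genes follow the annotation columns deposited with the counts, and coding starts and sequences come from GENCODE and the GRCh37 genome.

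Regions were named by a rule, at most 12 per direction with the largest fold change among those past the threshold that did not overlap between the 6 and the 12 lines and had a mean of at least 5 CPM in the higher group, and list genes by the region nearest their start within 2.5 kb, with a fixed set of genes shown whatever their result. Some items are not reported here. The groups, gene lists and motifs were chosen with earlier results of these data known. The p-values measure the spread between lines, each assayed once, and untreated lines were not assigned by any measured value.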

Additional observations from a re-analysis of the deposited data

How the results depend on the processing

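The comparison called 35 regions, 29 higher and 6 lower. Counts in the order all, higher, lower were 22, 18, 4 without TMM (median of all regions -0.10), 54, 47, 7 with trended offsets, 1574, 380, 1194 with DESeq2, 93, 82, 11 without a filter on low counts and 2, 1, 1 with at least 10 counts in every library. They were 183, 80, 103 with KMS12BM and KMS12PE as 2 samples, 43, 33, 10 with KMS12BM only, 7, 6, 1 with KMS12PE only, 47, 35, 12 with local scaling and 7, 7, 0 with a term for titles ending in Ctrl. Against the WHSC1 lines alone they were 219, 93, 126 and against the MAF lines alone 5, 1, 4. Of the 35 regions, 27 were tested against the WHSC1 lines alone and 18 passed. Against the MAF lines alone, 32 of them were tested and 1 passed. DESeq2 size factors gave 29, 23, 6 and lenalidomide libraries 32, 28, 4. Leaving out 1 sample at a time gave 5 (without KMS28) to 164 (without XG-6) regions, 5 to 127 higher and 0 to 40 lower. Counts moved by over 1.5 times also without H1112 (84), KMS27 (90), RPMI8226 (59), KMS12 (8), KMS18 (18), KMS21BM (7), KMS26 (8), KMS34 (7), LP1 (8), MM1S (9), OCIMY5 (11), OPM2 (7), U266 (14) and Karpas620 (23). Every one of the 35 regions that was tested under a setting had the same direction there, in each of these settings. The share of higher regions among the calls, 82.9%, was 24.1% with DESeq2. The cause of these moves was not tested.

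The CCND1 window difference of 0.54 was -0.26 (p = 0.32) for the tallest region alone, 0.68 (p = 0.035) with KMS12BM and KMS12PE as 2 samples and 0.88 (p = 0.016) for the window to the end of LTO1, chosen after seeing the data, all from exact permutation tests. With 1 sample left out it ran from 0.32 (without KMS12) to 0.71 (without U266, exact permutation p = 0.038), and was 0.63 without RPMI8226 (exact permutation p = 0.042). The other settings of the window gave 0.38 to 0.62 with p above the threshold. Of the 9 named regions, those near LINC00577, DLD and SNORA51 passed the threshold in 12 of 13 alternatives and in 17, 17 and 16 of the 17 omissions. All of them failed in the same alternative, against the MAF lines alone (edgeR adjusted p = 0.15, 0.15 and 0.18). Their log2 fold changes there were 4.80, 3.15 and 2.99, from fewer samples. The region downstream of CCND1 passed in 7 of 13 and 6 of 17, and the region in AGBL3 in 5 of 13 and 3 of 9. The lower regions near RP11-442O18.1, MRPS27, PCED1CP and IRX2 passed in 3, 6, 8 and 7 of 17 omissions. The filter on low counts left out regions with enough counts in too few lines. Single lines could still be high there, as at MS4A1 with up to 26.8 CPM. Differences in those regions were not tested.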
